A study of Mus musculus with 18 samples.

Results

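Type I interferon-stimulated genes were followed in mouse bone marrow-derived macrophages that differed in the transcription factor gene Irf4 and in exposure to interleukin 4 (IL-4), the cytokine used to bring macrophages into alternative activation. The members were a list of 41 genes known to be induced by type I interferon. They were chosen by name, with earlier results of these data known. Of these, 35 carried the listed name in the array files and 4 were found through a RefSeq accession or synonym, namely Dhx58, Irgm1, Gbp3 and Cmpk2. No probe was matched to Xaf1 or Dtx3l, and these genes were not analysed here. The 39 measured members stood among 15281 genes tested, and every one of the 39 was well above background on all 18 arrays, so the filter on dim probes removed none.

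Each sample was a culture of macrophages grown from marrow with human recombinant CSF1 and hybridised to 1 single-colour Agilent array. The cells came from Irf4-/- mice or from Irf4+/- littermates on the C57BL6/J background, 8 to 12 weeks old, and marrow of several animals was pooled. Irf4-/- macrophages were given IL-4 at 10 ng/ml for 18 h, given the same dose for 4 h, or left without IL-4 for 18 h (mock), and Irf4+/- macrophages were treated in the same 3 ways. All Irf4+/- cultures, the control genotype, carried 1 disrupted Irf4 allele, and no wild-type culture was part of the arrays used here. The letters A, B and C mark 3 independent experiments, each with 1 culture of every genotype and condition, so that 6 groups of 3 arrays resulted. The 4 h cultures were compared with a mock culture kept for 18 h.

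Type I interferons are secreted when a cell senses viral or microbial nucleic acid, and macrophages also make a low constitutive amount. They bind the receptor IFNAR1/IFNAR2, the kinases TYK2 and JAK1 are activated, and STAT2 and IRF9 act in the complex ISGF3. ISGF3 binds a short promoter element, the interferon-stimulated response element (ISRE), and switches on many antiviral genes. IL-4 signals through other receptors and mainly through STAT6.

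Promoter stretches of 5 members are shown because the ISRE is the element through which type I interferon is known to act. RefSeq promoter windows (GRCm38.p6, 250 bases before to 50 after a gene's start) were matched for 28 of the 39 members. The core of the ISRE, read as GAAA, any 2 bases and GAAA on either strand, was found in windows of 18 of these 28 members and in 3.44% of all 32851 windows. Because only 71.8% of the members had a window, under the 80% required for such a check, a comparison of these shares is void. The 60-base stretches below run 5′ to 3′ on the gene's strand and belong to 5 members with a match: Isg15, Ifit1, Rsad2, Ifit3 with the largest change at 18 h and Bst2 with the smallest. No match was found for 10 of the 28, among them Ifit2 and Isg20. Capitals mark the ISRE core. The stretches lie at chr4:156200856-156200915 (minus strand) for Isg15, chr19:34640769-34640828 (plus) for Ifit1, chr19:34583365-34583424 (plus) for Ifit3, chr12:26456538-26456597 (minus) for Rsad2 and chr8:71537565-71537624 (minus) for Bst2.
Isg15: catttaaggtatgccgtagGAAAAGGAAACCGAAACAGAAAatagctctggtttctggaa
Ifit1: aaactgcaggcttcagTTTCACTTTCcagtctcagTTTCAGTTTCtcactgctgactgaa
Ifit3: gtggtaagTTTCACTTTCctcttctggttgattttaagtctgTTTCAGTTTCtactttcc
Rsad2: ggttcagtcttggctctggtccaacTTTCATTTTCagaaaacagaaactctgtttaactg
Bst2: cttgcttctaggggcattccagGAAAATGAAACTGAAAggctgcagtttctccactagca
Isg15 held 3 overlapping matches, Ifit1, Ifit3 and Bst2 held 2 each, and Rsad2 held 1. In Ifit1, Ifit3 and Rsad2 the match lay on the other strand and reads TTTC. An ETS-IRF composite, GGAA, any 2 bases and GAAA, was found in windows of 4 of the 28 members and in 2.72% of all windows. A GAS element, TTCNNNGAA, was found for 9 members and in 8.3% of windows, and a STAT6-type element, TTC, any 4 bases and GAA, for 6 members and in 6.95%. The same bases can serve more than 1 of these patterns. Isg20, whose 18 h change was among the largest, held a GAS match at base -73 and a STAT6-type match at base -205 from its start.

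A level is the log2 of a spot's processed intensity over the 75th percentile of its array, so 0 means as bright as that percentile. Levels of different genes come from different probes and are not compared with each other. On the arrays, 63.4% to 74.4% of spots were well above background. All 8 macrophage markers tested, Csf1r and Cd68 among them, were well above background on all 18 arrays. So were 6 of 7 neutrophil, 4 of 6 plasmacytoid dendritic cell, 3 of 5 B cell and 3 of 5 fibroblast markers. Of T and NK cell markers, 1 of 7 was. The flag alone therefore does not separate these cell types. The probe of Irf4 does not check the genotype labels. Its level was -0.97, -0.53 and -0.81 in the Irf4-/- mock cultures of experiments A, B and C, against -1.15, -0.36 and -1.80 in the Irf4+/- mock cultures. It rose with IL-4 in Irf4-/- cells too, by 2.50 ± 0.39 at 4 h (log2 change ± standard error, adjusted p = 0.00172 in limma), and no source used here places the probe relative to the disrupted part. Cultures labelled Irf4-/- are named by that label throughout.

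In both genotypes all 39 members were lower after 18 h of IL-4 than in mock cultures, in each of the 3 experiments. The median log2 change of the members was -1.40 in Irf4-/- macrophages and -1.51 in Irf4+/- macrophages, while the median over all 15281 genes was 0.12 in Irf4-/- and 0.03 in Irf4+/-. Of all genes, 36.86% were lower in Irf4-/- and 46.45% in Irf4+/-. Ifit3 had the largest change, 12.2-fold lower in Irf4-/- cultures and 15.0-fold lower in Irf4+/- cultures. Bst2 had the smallest, 1.36-fold lower in Irf4-/- and 1.49-fold lower in Irf4+/- cultures. In RNA from whole cultures, fewer cells that express a gene and less RNA per cell cannot be told apart.

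**Figure D1:**
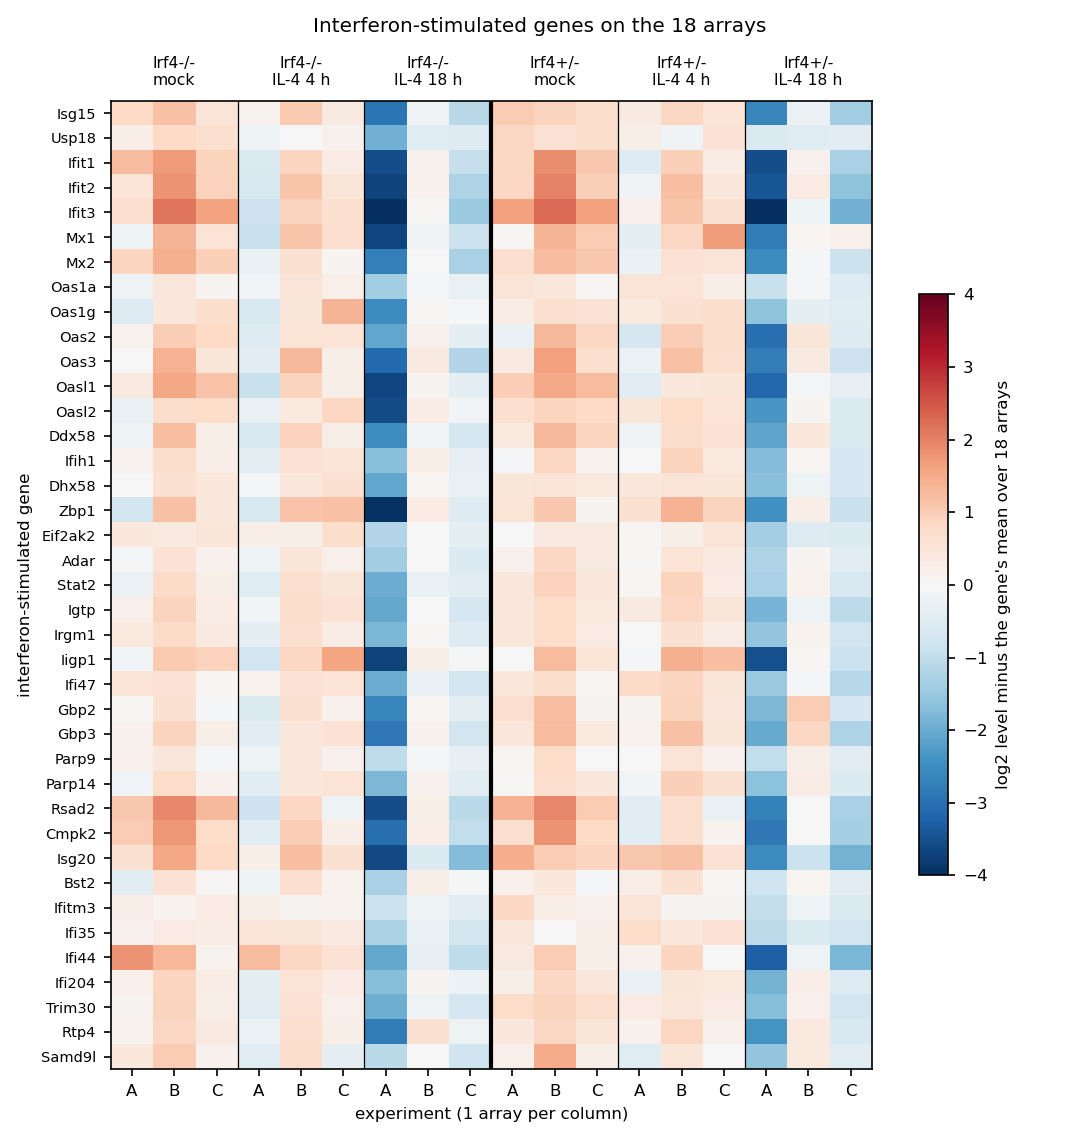
Log2 level of each of the 39 members (one line each, ordered by role) on each of the 18 arrays, shown as the colour, minus the gene's mean over the 18 arrays, with the 3 experiments side by side within each genotype and condition. The colour scale ends at -4 and 4. All members are lower at 18 h of IL-4 than in mock cultures of the same experiment, and most strongly in experiment A.

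How many members passed the test depended on whether the 3 experiments were treated as blocks. With 1 mean per group over 18 arrays (limma, Benjamini-Hochberg adjustment over all genes), 4 members fell at 18 h in Irf4-/- macrophages, where 1.45% of all genes fell. In Irf4+/- macrophages 5 members fell, where 2.05% of all genes fell. With the experiment as a replicate block, 32 of the 39 fell in Irf4-/- macrophages, against 6.74% of all genes, and 34 fell in Irf4+/- macrophages, against 7.83% of all genes. Same-letter arrays deviated together in every pair of groups, which is the basis for the block. Without the 18 h array of experiment B the unblocked count was 11 in Irf4-/- and 14 in Irf4+/-. It was 0 without the mock array of experiment B in Irf4-/-, and 0 without the mock or the 18 h array of experiment A in Irf4+/-. No share of all genes is given for the counts with an array left out. The 3 arrays at 18 h lay below the 3 mock arrays for 23 members in Irf4-/- (7.72% of all genes) and for 25 members in Irf4+/- (7.3%). Because animals were pooled, the p-values measure no spread between animals. Without the block they rest on the spread between the 3 experiments within a group, pooled over all groups. With the block the mean level of each experiment is removed, and they rest on the spread that remains over all 18 arrays. Neither fit uses only the variation of the 18 h change between the 3 experiments.

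**Figure D2:**
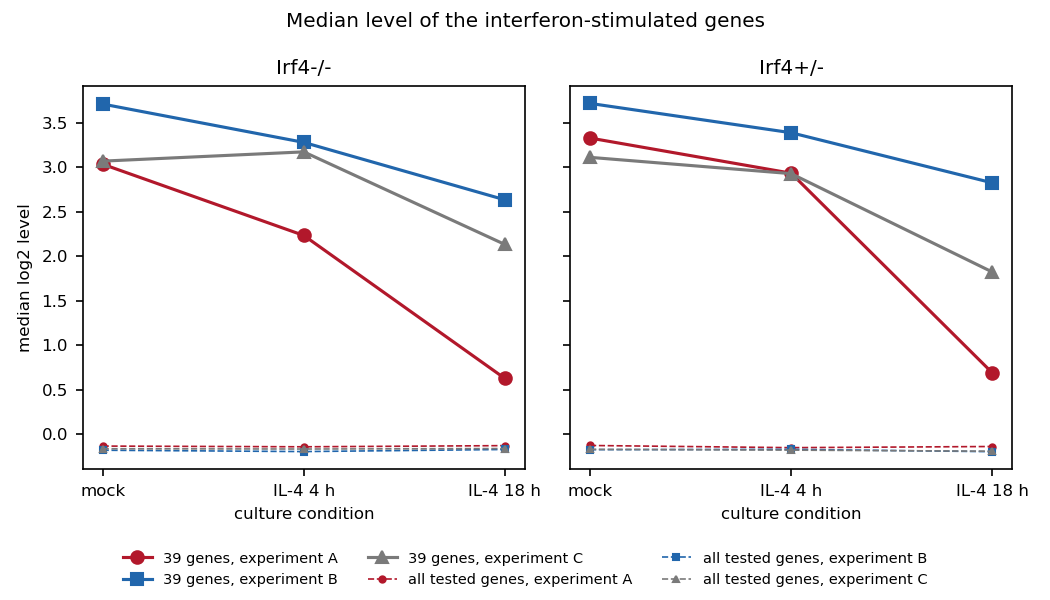
Median log2 level of the 39 members on each array (points joined within an experiment), for Irf4-/- and Irf4+/- cultures at mock, 4 h and 18 h of IL-4, with the median of all genes. In experiment A the members' median is 0.63 at 18 h in Irf4-/- and 0.69 in Irf4+/-, below every other array, while the medians of all genes stay between -0.20 and -0.13.

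The ISG15 system comprised Isg15, a ubiquitin-like protein that is conjugated to other proteins, and Usp18, the protease that removes it and also restrains the interferon receptor. Isg15 stood at 0.63, 3.42 and 2.44 in the 18 h cultures of experiments A, B and C in Irf4-/-, against 4.36, 4.74 and 4.06 in mock cultures. In Irf4+/- cells its levels were 0.95, 3.31 and 2.18 at 18 h, against 4.57, 4.44 and 4.28 in mock. All 18 h arrays lay below all mock arrays in each genotype. The change of Isg15 was -2.23 ± 0.60 in Irf4-/- (adjusted p = 0.0576 in limma, 0.00432 with the block) and it fell by 2.28 ± 0.60 in Irf4+/- (adjusted p = 0.0456 in limma). Usp18 levels were 1.21, 2.67 and 2.63 at 18 h in Irf4-/-, against 3.39, 3.93 and 3.77 in mock, a fall of 1.53 ± 0.31 (log2 change -1.53, adjusted p = 0.0116 in limma). In Irf4+/- cultures Usp18 levels were 2.54, 2.65 and 2.70 at 18 h, against 3.96, 3.72 and 3.84 in mock, a log2 change of -1.21 ± 0.31 (adjusted p = 0.0428 in limma). The 3 Irf4+/- arrays at 18 h were close together for Usp18, unlike those of Isg15.

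The IFIT proteins bind foreign RNA and block its translation, and this group had the largest changes beside Rsad2 and Isg20. Ifit3 levels were -1.11, 3.94 and 2.42 at 18 h in Irf4-/-, against 4.58, 6.02 and 5.50 in mock. In Irf4+/- they were -0.18, 3.71 and 1.98 at 18 h, against 5.54, 6.16 and 5.54 in mock. The groups did not overlap, and the culture of experiment A at 18 h was the lowest by a wide margin in both genotypes. The change of Ifit3 was -3.61 ± 1.07 in Irf4-/- (adjusted p = 0.0895 in limma, 0.00277 with the block) and -3.91 ± 1.07 in Irf4+/- (adjusted p = 0.0549 in limma, 0.00143 with the block). Ifit1, which recognises RNA lacking a host cap, stood at -2.24, 1.48 and 0.37 at 18 h in Irf4-/-, against 2.52, 3.01 and 2.20 in mock. In Irf4+/- its levels were -2.24, 1.48 and 0.00 at 18 h, against 2.14, 3.17 and 2.36 in mock. Its changes of -2.71 ± 0.90 in Irf4-/- and -2.81 ± 0.90 in Irf4+/- passed the test only with the block, as did those of Ifit2, -2.67 ± 0.94 in Irf4-/- and -2.82 ± 0.94 in Irf4+/-. Mouse Ifit3 has a near-identical copy that its probe may not separate.

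**Figure D3:**
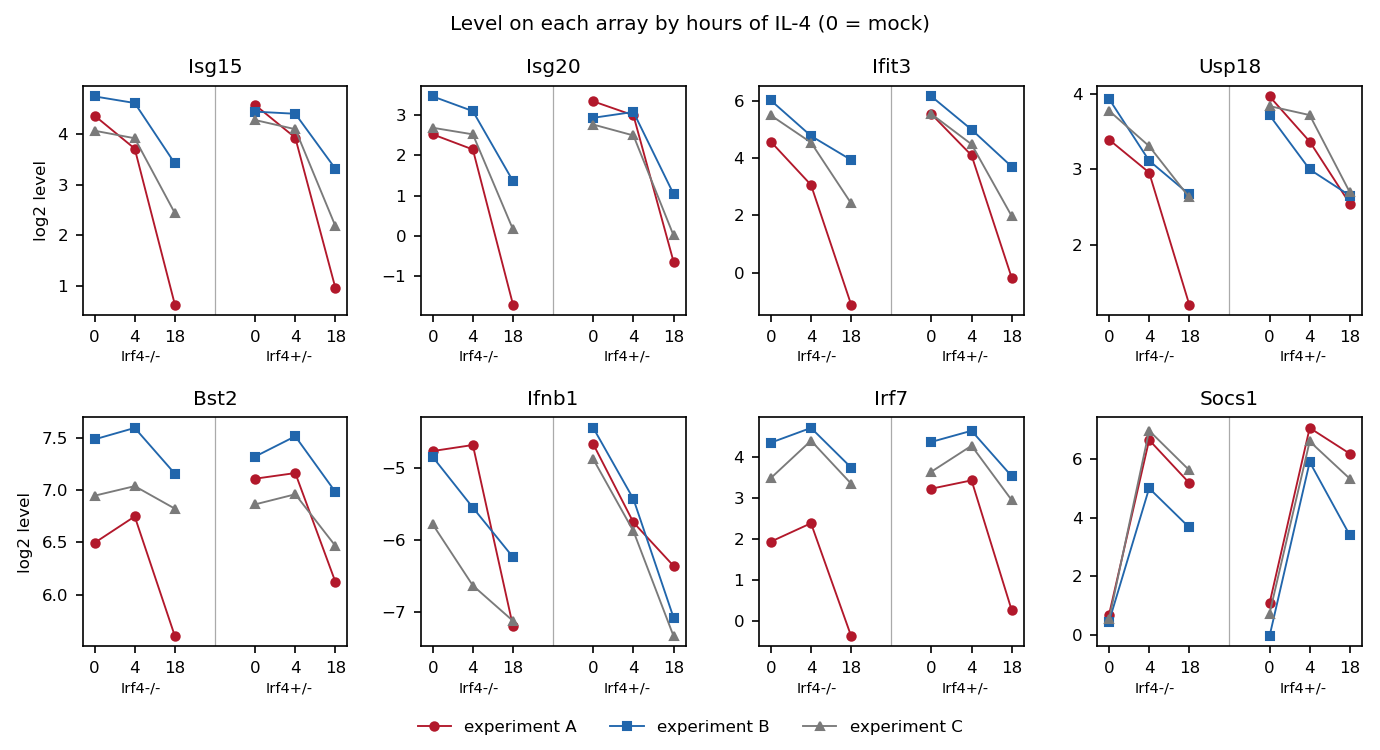
Log2 level (vertical axis) of the members Isg15, Isg20, Ifit3, Usp18 and Bst2 and of Ifnb1, Irf7 and Socs1 outside the list, on every array by hours of IL-4 (0 is mock), with lines joining cultures of 1 experiment within Irf4-/- and Irf4+/-. Ifit3 and Isg20 are lowest at 18 h in experiment A, Bst2 moves least, and Socs1 is highest at 4 h on every line.

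MX GTPases trap viral nucleocapsids. Mx2 levels were -1.18, 1.53 and 0.28 at 18 h in Irf4-/-, against 2.42, 2.99 and 2.53 in mock, with no overlap. Mx2 fell there by 2.44 ± 0.62 (log2 change -2.44, adjusted p = 0.0427 in limma). In Irf4+/- its levels were -1.0, 1.47 and 0.72 at 18 h, against 2.23, 2.80 and 2.65 in mock, and the change of -2.16 ± 0.62 missed the test (adjusted p = 0.0709 in limma) and passed with the block (0.00142). Mx1 overlapped between the groups. Its levels were -2.55, 0.98 and 0.25 at 18 h in Irf4-/-, against 0.93, 2.46 and 1.67 in mock, and -1.69, 1.21 and 1.31 at 18 h in Irf4+/-, against 1.15, 2.48 and 2.14 in mock. The Mx1 change was -2.13 ± 0.95 in Irf4-/- and -1.65 ± 0.95 in Irf4+/-, called only with the block.

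The OAS family makes 2′-5′ oligoadenylates, which activate the ribonuclease RNase L, and includes the catalytically different Oasl genes. None of its 6 members passed the test without the block, 3 of 6 fell with it in Irf4-/- and 5 of 6 in Irf4+/-, and the family's median change was -1.47 in Irf4-/- and -1.66 in Irf4+/-. Oas2 stood at 1.53, 3.77 and 3.21 at 18 h in Irf4-/-, against 3.74, 4.58 and 4.40 in mock. In Irf4+/- it stood at 0.59, 4.07 and 3.08 at 18 h, against 3.33, 4.88 and 4.42 in mock. Arrays of different experiments overlapped between the groups in both genotypes, although Oas2 was lower at 18 h within every experiment. The changes of Oas2 were -1.40 ± 0.79 in Irf4-/- (block adjusted p = 0.0174 in limma) and -1.63 ± 0.79 in Irf4+/- (0.00723). Oas1a had the family's smallest change, -0.72 ± 0.32 in Irf4-/- and -0.84 ± 0.32 in Irf4+/-. Oas1a and Oas1g are close paralogs whose signals may not be separate, and a further kept probe of Oas3 gave -0.92 in Irf4-/- where the chosen probe gave -1.94.

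Among sensors of nucleic acid and enzymes that act on double-stranded RNA, 5 of 6 fell with the block in each genotype and none without it, with a median change of -1.03 in Irf4-/- and -1.19 in Irf4+/-. Ddx58 encodes RIG-I, the sensor of viral RNA ends. Its levels were -0.84, 1.54 and 0.94 at 18 h in Irf4-/-, against 1.47, 2.85 and 1.88 in mock. In Irf4+/- they were -0.47, 2.06 and 1.07 at 18 h, against 2.04, 2.95 and 2.52 in mock. The Ddx58 groups overlapped narrowly, with changes of -1.52 ± 0.66 in Irf4-/- and -1.62 ± 0.66 in Irf4+/-, called only with the block. The RNA editor Adar, which converts adenosine to inosine, stood at 0.69, 2.09 and 1.55 at 18 h in Irf4-/-, against 2.04, 2.65 and 2.26 in mock. In Irf4+/- it stood at 0.84, 2.20 and 1.62 at 18 h, against 2.25, 2.91 and 2.44 in mock. Its changes, -0.87 ± 0.37 in Irf4-/- and -0.98 ± 0.37 in Irf4+/-, were among the smaller ones and were called only with the block, and the groups overlapped in Irf4-/- alone. Zbp1, a sensor of Z-form nucleic acid, was the sensor that missed the test in both fits, at -1.66 ± 0.93 in Irf4-/- and -1.60 ± 0.93 in Irf4+/- (block adjusted p = 0.0625 and 0.0838 in limma).

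Stat2, a subunit of ISGF3, stood at 1.36, 3.04 and 2.88 at 18 h in Irf4-/-, against 3.11, 4.10 and 3.59 in mock. In Irf4+/- its levels were 2.06, 3.50 and 2.69 at 18 h, against 3.81, 4.27 and 3.80 in mock. The Stat2 groups did not overlap in either genotype. The change of Stat2 was -1.18 ± 0.47 in Irf4-/- (block adjusted p = 0.00378 in limma) and -1.21 ± 0.47 in Irf4+/- (0.00282), and without the block it passed in neither.

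The IRG and GBP GTPases attack the vacuoles of intracellular parasites and bacteria and respond to interferon gamma as well. Of 6 members, 5 fell with the block in each genotype and none without it, and their median change was -1.38 in Irf4-/- and -1.40 in Irf4+/-. Iigp1 stood at -2.10, 1.83 and 1.50 at 18 h in Irf4-/-, against 1.47, 2.62 and 2.49 in mock, and in Irf4+/- at -1.92, 1.62 and 0.72 at 18 h, against 1.57, 2.86 and 2.15 in mock. Its change was -1.78 ± 1.01 in Irf4-/- and -2.05 ± 1.01 in Irf4+/-, with the widest spread of the group. Gbp2 was the member of this group that passed in neither fit. Its levels were -0.12, 2.57 and 2.14 at 18 h in Irf4-/-, against 2.54, 3.09 and 2.45 in mock, and in Irf4+/- 0.69, 3.49 and 1.82 at 18 h, against 3.14, 3.68 and 2.60 in mock. The change of Gbp2 was -1.16 ± 0.69 in Irf4-/- (block adjusted p = 0.0924 in limma) and -1.14 ± 0.69 in Irf4+/- (0.12). In experiment B the Irf4+/- cultures differed by only -0.19 for Gbp2. Members of the GBP family share sequence, and their probes may not separate them.

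Parp9 and Parp14 encode ADP-ribosyltransferases of the macro domain class. Both fell with the block in each genotype, with changes of -0.67 ± 0.32 and -0.93 ± 0.52 in Irf4-/-, and of -0.68 ± 0.32 and -1.02 ± 0.52 in Irf4+/-. These were small beside other groups, and further probes of Parp14 gave -1.61 and -1.74 in Irf4-/-.

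Rsad2 (viperin) makes a chain-terminating nucleotide, Cmpk2 is a mitochondrial nucleotide kinase encoded beside it, and Isg20 is an RNA exonuclease. All 3 fell with the block in both genotypes, with a median change of -2.90 in Irf4-/- and -2.77 in Irf4+/-. Isg20 levels were -1.71, 1.36 and 0.16 at 18 h in Irf4-/-, against 2.52, 3.46 and 2.68 in mock. In Irf4+/- they were -0.64, 1.04 and 0.01 at 18 h, against 3.34, 2.93 and 2.76 in mock. Isg20 had the largest change among members that passed without the block: it was 7.74-fold lower in Irf4-/- cultures (log2 change -2.95 ± 0.60, adjusted p = 0.0109 in limma) and 7.35-fold lower in Irf4+/- cultures (-2.88 ± 0.60, adjusted p = 0.0116 in limma). Rsad2 stood at -0.60, 3.18 and 1.89 at 18 h in Irf4-/-, against 4.02, 4.87 and 4.27 in mock, and in Irf4+/- at 0.24, 2.98 and 1.67 at 18 h, against 4.35, 4.89 and 3.97 in mock. Its changes were -2.90 ± 0.81 in Irf4-/- (adjusted p = 0.0676 in limma, 0.0014 with the block) and -2.77 ± 0.81 in Irf4+/- (0.0785, and 0.00169 with the block). Cmpk2, called only with the block, had changes of -2.42 ± 0.76 in Irf4-/- and -2.50 ± 0.76 in Irf4+/-.

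The membrane proteins Ifitm3, which hinders fusion of viruses with endosomes, and Bst2 (tetherin), which holds budding virions at the surface, had small changes. Ifitm3 levels were 5.33, 6.01 and 5.73 at 18 h in Irf4-/-, against 6.45, 6.33 and 6.51 in mock. In Irf4+/- they were 5.24, 6.00 and 5.62 at 18 h, against 7.01, 6.44 and 6.37 in mock. The groups did not overlap in either genotype, and Ifitm3 fell by 0.99 ± 0.23 in Irf4+/- (log2 change -0.99, adjusted p = 0.0238 in limma), while -0.74 ± 0.23 in Irf4-/- passed only with the block (adjusted p = 0.0384). Bst2 stood at 5.60, 7.16 and 6.82 at 18 h in Irf4-/-, against 6.50, 7.49 and 6.95 in mock, and in Irf4+/- at 6.12, 6.98 and 6.47 at 18 h, against 7.11, 7.32 and 6.86 in mock. These groups overlapped, and the changes of -0.45 ± 0.38 in Irf4-/- and -0.58 ± 0.38 in Irf4+/- missed the test with and without the block.

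Of the 6 other measured members, Ifi35, Ifi44, Ifi204, Trim30 and Samd9l fell with the block in both genotypes and Rtp4 in neither. Ifi35, a leucine zipper protein induced by interferon, had narrow spreads. Its levels were 1.59, 2.58 and 2.13 at 18 h in Irf4-/-, against 3.03, 3.19 and 3.15 in mock, a log2 change of -1.03 ± 0.22 (adjusted p = 0.0146 in limma). In Irf4+/- they were 1.81, 2.27 and 2.09 at 18 h, against 3.30, 2.88 and 3.11 in mock, a log2 change of -1.04 ± 0.22 (adjusted p = 0.0123 in limma). Ifi35, Usp18 and Isg20 were the members that passed the test without the block in both genotypes, and the changes of Ifi35 and Usp18 were smaller than those of Ifit3 or Rsad2, whose standard errors were larger. The changes of the others lay between -2.21 for Ifi44 and -1.07 for Ifi204 in Irf4-/-, and between -2.29 for Ifi44 and -1.19 for Samd9l in Irf4+/-. Rtp4, a chaperone of receptors, had -1.24 ± 0.73 in Irf4-/- and -1.45 ± 0.73 in Irf4+/-.

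At 4 h most members had moved little, and the comparison uses the same mock arrays as that at 18 h. No member was called at 4 h without the block in either genotype (limma), where 1.71% of all genes fell in Irf4-/- and 1.96% in Irf4+/-. None had an unadjusted p under 0.05 in that fit. Of the 15281 genes, 2088 had one in Irf4-/- and 2114 in Irf4+/-. With the block 1 member, Rsad2, fell in Irf4-/-, against 8.15% of all genes, and 0 fell in Irf4+/-, against 8.29%. The median log2 change was -0.22 in Irf4-/- and -0.17 in Irf4+/-, beside 0.08 and -0.02 over all genes. Of the 39 members, 33 were lower in Irf4-/- and 27 in Irf4+/-, where 41.51% and 52.1% of all genes were lower. In all 3 experiments 16 were lower in Irf4-/- and 19 in Irf4+/-, counts given without a share of all genes.

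Rsad2 and Ifit3 had the largest differences at 4 h in both genotypes. Rsad2 levels at 4 h were 2.14, 3.78 and 2.74 in Irf4-/-, below the 3 mock arrays given above, a change of -1.50 ± 0.81 (block adjusted p = 0.05 after rounding, in limma). In Irf4+/- its levels at 4 h were 2.54, 3.60 and 2.71, also below the mock arrays, with a change of -1.45 ± 0.81. Ifit3 stood at 3.07, 4.78 and 4.55 at 4 h in Irf4-/- and at 4.10, 5.00 and 4.49 in Irf4+/-, with changes of -1.23 ± 1.07 and -1.22 ± 1.07. Mx2, Oasl1, Cmpk2 and Ifit2 had changes between -1.11 and -0.72 over both genotypes, and Ifit1 had -1.07 ± 0.90 in Irf4-/- and -1.01 ± 0.90 in Irf4+/-. At the other end stood Zbp1, 0.27 ± 0.93 in Irf4-/- and 0.38 ± 0.93 in Irf4+/-, and Ifi35, 0.19 ± 0.22 in Irf4-/- and 0.34 ± 0.22 in Irf4+/-. The 3 arrays at 4 h lay below the 3 mock arrays for 4 members in Irf4-/- (9.88% of all genes) and for 6 in Irf4+/- (8.07%). Ifi35 in Irf4-/- lay above mock on all arrays.

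Other members described at 18 h also missed the test at 4 h. Usp18 had -0.57 ± 0.31 in Irf4-/- and -0.48 ± 0.31 in Irf4+/-, and Isg15 had -0.31 ± 0.60 and -0.29 ± 0.60. Oas2 had -0.45 ± 0.79 in Irf4-/- and -0.28 ± 0.79 in Irf4+/-, Ddx58 had -0.23 ± 0.66 and -0.48 ± 0.66, and Mx1 had -0.27 ± 0.95 and -0.10 ± 0.95. Stat2, Adar, Gbp2 and Ifitm3 lay between -0.19 and -0.04 in both genotypes, and Iigp1 stood at -0.06 ± 1.01 in Irf4-/- and 0.25 ± 1.01 in Irf4+/-. Each of these was within 2 standard errors of 0.

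Set directly against each other, the 18 h cultures were below the 4 h cultures for all 39 members in both genotypes. The median change was -1.26 in Irf4-/- and -1.33 in Irf4+/-, and the sign held in all 3 experiments for 39 members in Irf4-/- and for 38 in Irf4+/-, the exception being Gbp2 in experiment B (0.10). Without the block 1 member, Ifi35, fell in Irf4-/-, where 0.242% of all genes fell, and 2, Isg20 and Ifi35, fell in Irf4+/-, where 0.628% did. With the block 20 members fell in Irf4-/- (3.8% of all genes) and 29 in Irf4+/- (6.41%). The 18 h arrays lay below the 4 h arrays for 8 members in Irf4-/- (5.13% of all genes) and for 16 in Irf4+/- (6.17%). Ifi35 levels at 4 h were 3.39, 3.35 and 3.21 in Irf4-/- and 3.60, 3.27 and 3.44 in Irf4+/-. The 18 h levels lay below all of these, by 1.22 ± 0.22 in Irf4-/- (log2 change -1.22, adjusted p = 0.0178 in limma) and 1.38 ± 0.22 in Irf4+/- (-1.38, adjusted p = 0.00591 in limma). Isg20 at 4 h stood at 2.14, 3.10 and 2.52 in Irf4-/- and at 2.99, 3.08 and 2.49 in Irf4+/-. Its change against 4 h was -2.65 ± 0.60 in Irf4-/-, the largest there, and -2.72 ± 0.60 in Irf4+/- (adjusted p = 0.0408 in limma). Among the fixed set of members described throughout, Iigp1 had -1.72 ± 1.01 in Irf4-/- and -2.30 ± 1.01 in Irf4+/-, and Isg15 had -1.92 ± 0.60 and -1.99 ± 0.60. Mx1, Ifit1, Rsad2, Ddx58, Stat2, Gbp2, Oas2, Usp18, Adar and Ifitm3 lay between -1.86 and -0.67 in Irf4-/- and between -1.79 and -0.73 in Irf4+/-. Samd9l had the smallest change in both genotypes, -0.59 ± 0.50 in Irf4-/- and -0.57 ± 0.50 in Irf4+/-.

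The members' median changes at 18 h lay further apart between the 3 experiments than between the genotypes. The median change at 18 h was -2.31 in experiment A, -0.82 in B and -0.96 in C in Irf4-/- cultures, and -2.45 in A, -0.83 in B and -1.14 in C in Irf4+/- cultures. In A and B each of these compares cultures on 1 slide. At 4 h the medians were -0.46, -0.22 and 0.03 in Irf4-/- and -0.35, -0.14 and -0.04 in Irf4+/-. Levels themselves differed too, since 35 of the 39 members differed between experiments with genotype and condition in the fit (limma F-test), beside 73.5% of all genes. The mean was lowest in experiment A for 37 members and highest in B for 36. Usp18, Ifitm3, Ifi35 and Ifi44 were the members not called for the experiments. At 18 h all 39 were lowest in A in both genotypes.

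A test of whether the 18 h response itself differed between experiments, added after the values were seen, used the 12 mock and 18 h arrays with 5 residual degrees of freedom. It called 1 member, Ifit1 (adjusted p = 0.0385 in limma), where 0.0327% of all genes were called. The Ifit1 change was -4.75 in experiment A, -1.53 in B and -1.83 in C in Irf4-/-, and -4.37 in A, -1.69 in B and -2.36 in C in Irf4+/-. Experiment A thus had the larger change in both genotypes. The same test at 4 h called 0 members and 0% of all genes (limma).

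**Figure D4:**
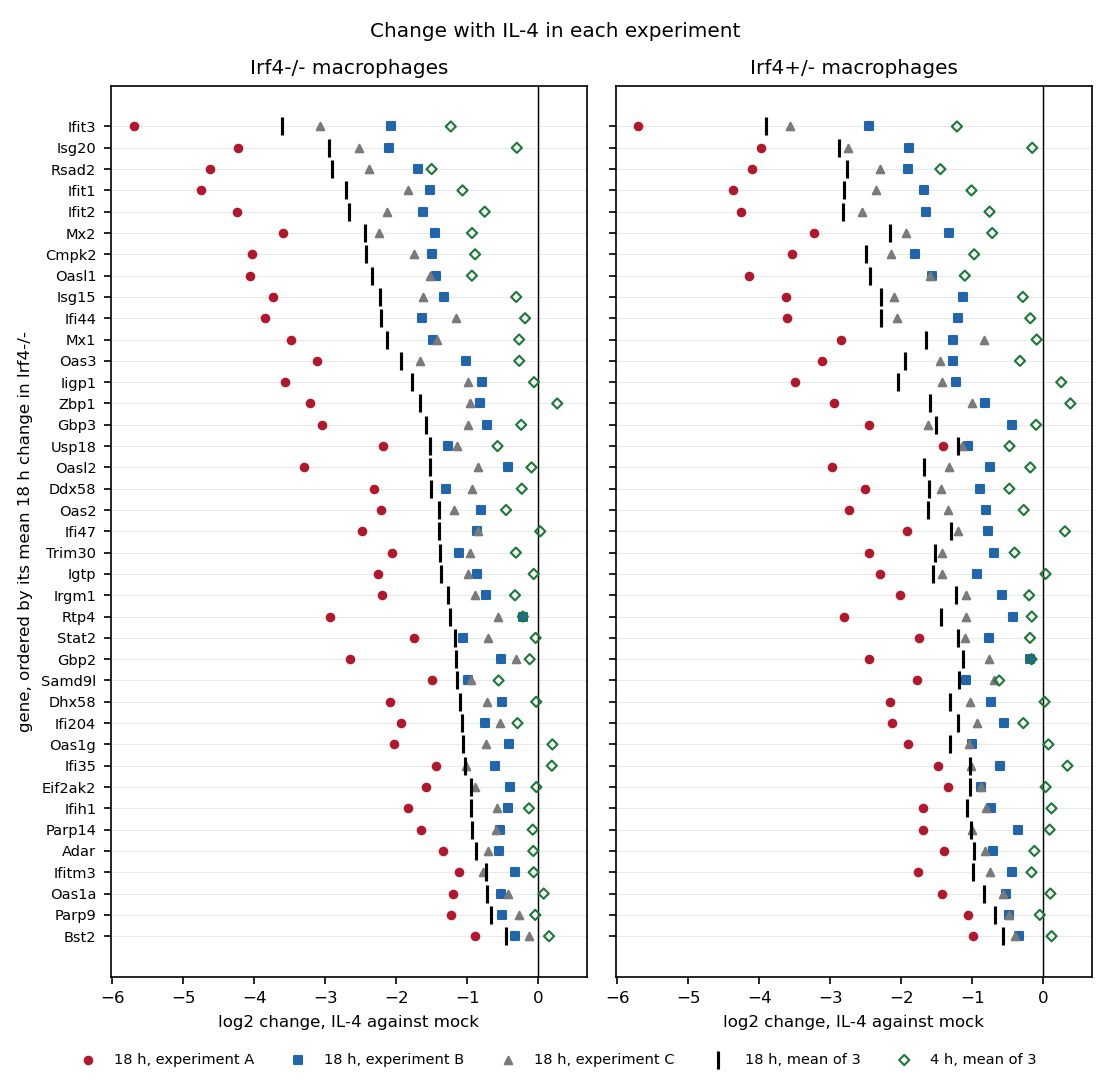
Log2 change with IL-4 against mock (horizontal axis) for each of the 39 members, in Irf4-/- and Irf4+/- cultures, at 18 h in experiments A, B and C (1 point each), with the mean at 18 h (tick) and the mean at 4 h (diamond). Every 18 h point is below 0, and those of experiment A lie furthest left, with medians of -2.31 in Irf4-/- and -2.45 in Irf4+/-.

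The question of whether the members depend on Irf4 was addressed by the Irf4-/- cultures against the Irf4+/- cultures. No member was called at 18 h, at 4 h, in mock or averaged over the 3 conditions, with or without the block (limma). None had an unadjusted p under 0.05 without the block. Of the 15281 genes, 460 had one at 18 h, 120 at 4 h, 358 in mock and 1381 averaged over conditions. Of all genes, 0.0262% were called at 18 h without the block and 0.445% with it, 0% and 0.0262% at 4 h, 0% and 0.0327% in mock, and 0% and 8.4% averaged over conditions. The median difference of the members was -0.06 at 18 h, -0.16 at 4 h, -0.12 in mock and -0.08 averaged, beside 0.02, -0.01, -0.06 and -0.02 over all genes. The standard error of a single member's difference in 1 condition had a median of 0.60 without the block and 0.36 with it. A missed threshold does not show that the genotypes are alike.

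Of the 39 members, 24 were lower in Irf4-/- than in Irf4+/- cultures at 18 h, 36 at 4 h, 29 in mock and 32 averaged over conditions, where 46.23%, 52.67%, 59.68% and 54.15% of all genes were lower. At 18 h the members' median difference had no common sign over the experiments, with -0.33 in A, 0.01 in B and 0.23 in C. It was -0.42, -0.03 and 0.03 at 4 h, and in mock it was below 0 in each, at -0.27, -0.02 and -0.06. Ifi44 had the highest difference in each condition, at 0.62 ± 0.64 at 18 h, 0.55 ± 0.64 at 4 h and 0.55 ± 0.64 in mock. Its levels at 18 h were -1.09, 0.64 and -0.04 in Irf4-/-, against -2.29, 0.78 and -0.85 in Irf4+/-, and these overlap. Mx1 was lowest at 18 h, with -0.72 ± 0.95, and at 4 h, with -0.41 ± 0.95, and Gbp2 was lowest in mock, with -0.45 ± 0.69. Isg15 differed by 0.01 ± 0.60 at 18 h, Usp18 by -0.46 ± 0.31, Stat2 by -0.32 ± 0.47, Rsad2 by -0.14 ± 0.81 and Ifitm3 by 0.07 ± 0.23. Ifit1, Oas2, Ddx58, Iigp1, Gbp2 and Adar lay between -0.47 and 0.27 at 18 h.

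**Figure D5:**
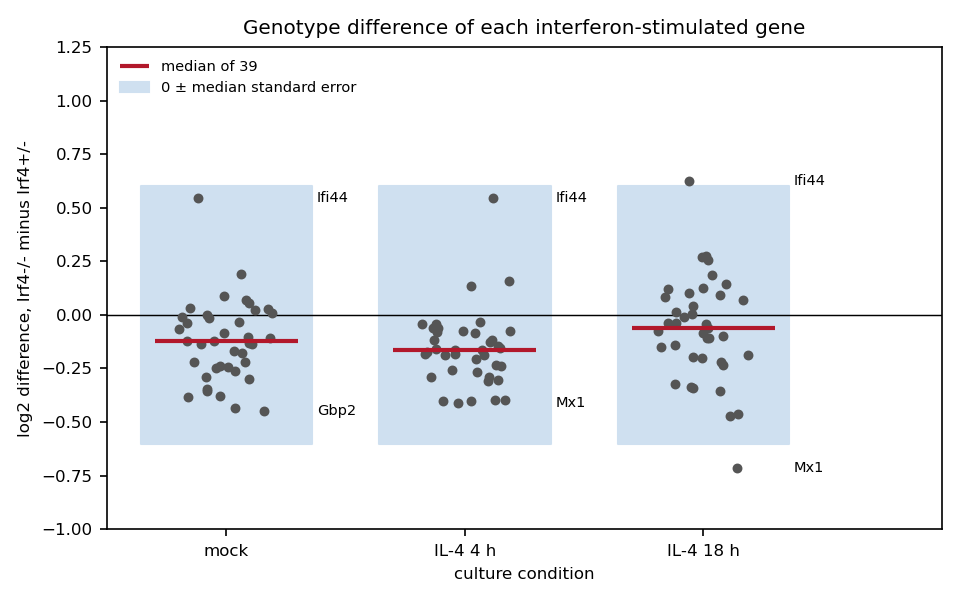
Difference in log2 level, Irf4-/- minus Irf4+/-, for each of the 39 members in mock, 4 h and 18 h cultures (points), with the median as a line and a band of 1 median standard error (0.60) on each side of 0. The medians are -0.12 in mock, -0.16 at 4 h and -0.06 at 18 h, with 29, 36 and 24 of the 39 points below 0, and none passes the test.

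The response to IL-4 also did not differ detectably between the genotypes. The difference of the 18 h response, Irf4-/- minus Irf4+/-, had a median of 0.09 over the members, with a median standard error of 0.85. It lay between -0.48 ± 1.34 for Mx1 and 0.30 ± 1.51 for Ifit3, with 0.05 ± 0.85 for Isg15, -0.32 ± 0.45 for Usp18 and 0.25 ± 0.33 for Ifitm3. At 4 h the median was -0.02, between -0.31 ± 1.43 for Iigp1 and 0.25 ± 0.94 for Ddx58. No member and 0% of all genes were called for either difference, with or without the block (limma). No member had an unadjusted p under 0.05 without the block, where 82 of the 15281 genes had one at 18 h and 56 at 4 h. In experiments A and B each genotype had a slide of its own, so genotype and slide cannot be told apart there, whereas IL-4 and mock cultures of 1 genotype shared a slide. In experiment C the cultures lay on other combinations of slides.

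The genes that make, receive and limit the interferon signal were read from a list of 33, of which 30 were tested. At 18 h, 1 gene fell and 2 rose in Irf4-/- (with the block 7 and 3), and 2 fell and 3 rose in Irf4+/- (with the block 8 and 3). At 4 h, 0 fell and 2 rose in Irf4-/- (with the block 6 and 4), and 1 fell and 2 rose in Irf4+/- (with the block 8 and 4). Of all genes, 2.15% rose at 18 h in Irf4-/- and 2.16% in Irf4+/-, with the block 11.9% and 7.87%. At 4 h, 2.24% rose in Irf4-/- and 2.34% in Irf4+/-, with the block 10.2% and 10.1%. None of the 30 was called between the genotypes at 18 h, at 4 h or in mock, in either fit. Averaged over conditions, 3 of the 30 were called with the block, Tyk2 (-0.37), Irf5 (-0.35) and Ikbke (-0.28), a share near the 8.4% of all genes called there.

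Ifnb1, which encodes interferon beta, was dim on every array and entered the test through its mock and 4 h arrays. Its levels were -7.20, -6.24 and -7.12 at 18 h in Irf4-/-, against -4.76, -4.84 and -5.78 in mock. In Irf4+/- they were -6.36, -7.08 and -7.33 at 18 h, against -4.67, -4.44 and -4.87 in mock. No 18 h array of either genotype was well above background for Ifnb1, so the fold was taken against a floor. On each array this was the dimmest signal of any probe still well above background or Ifnb1's own signal, whichever was higher. It is not the detection limit of the Ifnb1 probe. In Irf4-/- experiment B at 18 h Ifnb1 missed the flag at -6.24, although the dimmest flagged signal was -6.67. The folds are thus no strict lower bounds. Against that floor Ifnb1 was 2.49-fold lower in Irf4-/- (measured means -6.85 at 18 h and -5.13 in mock, adjusted p = 0.0403 in limma on the measured values). In Irf4+/- it was 3.96-fold lower (-6.92 and -4.66, adjusted p = 0.00635 in limma). These p-values rest on 18 h signals that were not well above background and do not test the folds against the floor. Ifnb1 was kept for testing only through groups where it was brighter, so its calls at 18 h are no support for a fall. The 1 gene given above as fallen at 18 h in Irf4-/-, and 1 of the 2 in Irf4+/-, is Ifnb1. At 4 h its change was -0.49 ± 0.43 in Irf4-/- and -1.03 ± 0.43 in Irf4+/-, called only in Irf4+/- and only with the block (adjusted p = 0.0447 in limma).

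In the receptor and its kinases, Ifnar1 fell at 4 h in Irf4+/- by 0.61 ± 0.15 (log2 change -0.61, adjusted p = 0.033 in limma), with -0.56 ± 0.15 in Irf4-/- (adjusted p = 0.0571). Ifnar2, its partner chain, had -0.25 ± 0.16 in Irf4-/- and -0.29 ± 0.16 in Irf4+/- at 18 h. Jak2, a kinase of other cytokine receptors, rose at 18 h by 0.93 ± 0.19 in Irf4-/- (adjusted p = 0.0118 in limma) and by 1.06 ± 0.19 in Irf4+/- (0.00427). Socs1, an inhibitor of JAK kinases that dampens interferon and IL-4 signals alike, rose most.

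Socs1 stood at 0.68, 0.45 and 0.53 in mock, 6.65, 5.00 and 6.96 at 4 h and 5.18, 3.66 and 5.62 at 18 h in Irf4-/-. In Irf4+/- it stood at 1.07, -0.04 and 0.73 in mock, 7.06, 5.90 and 6.60 at 4 h and 6.18, 3.40 and 5.32 at 18 h. It rose at 4 h by 5.65 ± 0.68 in Irf4-/- and 5.93 ± 0.68 in Irf4+/- (adjusted p = 0.000214 and 0.00014 in limma), and was still higher than mock by 4.27 ± 0.68 and 4.38 ± 0.68 at 18 h. No IL-4 array overlapped with a mock array.

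Of the transcription factors, Irf7, which amplifies interferon production, was not called. Its levels were -0.36, 3.75 and 3.35 at 18 h in Irf4-/-, against 1.94, 4.35 and 3.49 in mock, and 0.27, 3.54 and 2.95 at 18 h in Irf4+/-, against 3.23, 4.37 and 3.65 in mock. As with the members, experiment A was lowest at 18 h. Its changes were -1.02 ± 1.05 in Irf4-/- and -1.50 ± 1.05 in Irf4+/- at 18 h. Irf9, the DNA-binding subunit of ISGF3, fell with the block at 18 h, with -0.55 ± 0.24 in Irf4-/- and -0.62 ± 0.24 in Irf4+/- (block adjusted p = 0.0403 and 0.0245 in limma). Irf2, a repressor of interferon-induced genes, rose at 18 h in Irf4+/- by 0.70 ± 0.18 (adjusted p = 0.0365 in limma), with 0.48 ± 0.18 in Irf4-/-.

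Among the sensing genes, Tlr3, the endosomal receptor for double-stranded RNA, stood at -3.76, -2.65 and -2.55 at 18 h in Irf4+/-, against -1.95, -1.42 and -1.71 in mock. It fell there by 1.29 ± 0.32 (log2 change -1.29, adjusted p = 0.0319 in limma). In Irf4-/- its levels were -2.76, -2.16 and -2.23 at 18 h, against -1.38, -1.32 and -1.60 in mock, a change of -0.95 ± 0.32 that passed only with the block (adjusted p = 0.00653). Ikbke, a kinase that activates IRF3, passed only with the block, at -1.01 ± 0.39 in Irf4-/- and -1.09 ± 0.39 in Irf4+/-.

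Markers of other cell types were read beside these values. Of 6 plasmacytoid dendritic cell markers 4 were well above background on all 18 arrays and 1, Siglech, on none. A sum of linear signals is set mostly by its brightest probes. Their summed level, on the linear scale relative to the 75th percentile, was 1.78 to 2.16 at 18 h in Irf4-/-, against 1.04 to 1.58 in mock, and 1.60 to 2.08 at 18 h in Irf4+/-, against 1.02 to 1.49 in mock. The sum of 5 B cell markers, 3 of them well above background on all arrays, was 0.97 to 1.18 at 18 h in Irf4-/-, against 1.31 to 1.83 in mock, and 1.16 to 1.80 at 18 h in Irf4+/-, against 1.99 to 2.81 in mock. The sum of the 8 macrophage markers was 507 to 1042 at 18 h in Irf4-/-, against 483 to 882 in mock, and 658 to 831 at 18 h in Irf4+/-, against 806 to 911 in mock. The part of these markers in the members' changes was not tested.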

How the data were processed

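RNA of 18 macrophage cultures was measured on 18 single-colour Agilent arrays, with groups and experiments read from the sample titles. The authors used Agilent Feature Extraction 9.5.1, per the file headers, and deposited a background-subtracted processed intensity for each spot. Deposited flags mark controls, outliers, saturated spots and spots well above background. The authors' deposited table of log2 values for the whole series, whose making no source used here describes, served as an alternative.

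From the intensity, log2 was taken and the 75th percentile of each array (719.2 to 1960.7) was subtracted. Control spots and outlier spots (63 to 182 per array) were left out, spots of a probe were averaged, and no member's spot was saturated. Kept probes were well above background throughout at least 1 group (27505 of 41174 probes), and a gene was read from its kept probe with the highest mean, which gave 15281 genes. Of the members, 17 had further kept probes, 22 in all, and none had the opposite sign at 18 h. Probes were named through RefSeq accessions and symbols of the GRCm38.p6 table. Precision is limited by the number of arrays, 3 in each group.

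Tests were run in R 4.3.3 with limma 3.58.1 (lmFit and eBayes) and statmod 1.5.0, with 1 mean per group, Benjamini-Hochberg adjustment over all genes and an adjusted p under 0.05 as the threshold, two-sided. Errors are standard errors of that fit, also beside an adjusted p with the block. The code was tested on simulated data. Replicate letters come from independent experiments with littermates. The letters pair the arrays: in all 45 same-letter pairs of groups the deviations from the group means correlated, with r between 0.443 and 0.871 over 15230 genes, so a fit with the experiment as a replicate block is given beside it. Python 3.11.15, numpy 2.4.6, pandas 2.3.3 and matplotlib 3.10.9 read files and drew plots.

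The members, the list of 33 pathway genes, the marker lists and the named genes were chosen with earlier results of these data known. Named are Isg15, Usp18, Ifit1, Mx1, Oas2, Rsad2, Ddx58, Stat2, Iigp1, Gbp2, Adar and Ifitm3, every member called in a comparison without the block, and the members with the largest and smallest change. Other members are named after their values were seen. Alternatives changed the background correction (normexp, offset 50), the scaling, the filter, the probe rule, the arrays in the fit, the slide and the experiment blocks. The slide as a fixed block, the count over the 35 members with the file's name, the block without 1 experiment, normexp without very dim spots, and the tests of a response differing between experiments were added after the data were seen.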

Additional observations from a re-analysis of the deposited data

Results flagged for a closer look

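The response of Ifi35 to IL-4 differed between 18 h and 4 h in both genotypes, by -1.22 ± 0.22 in Irf4-/- and -1.38 ± 0.22 in Irf4+/- (log2, standard error, limma adjusted p = 0.0178 and 0.00591). It is the one member whose mean was above mock at 4 h and whose fall at 18 h passed the test without the block. Isg20 differed between 18 h and 4 h by -2.72 ± 0.60 in Irf4+/- (limma adjusted p = 0.0408), with -2.65 ± 0.60 in Irf4-/-, where it missed the threshold. The 18 h response of Ifit1 differed between experiments A, B and C, at a limma adjusted p = 0.0385. This test was added after the values were seen.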

How the results depend on the processing

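Over the alternatives, the sign at 18 h against mock or 4 h was followed only for the named members of each comparison. This sign was negative in all but 1 of 1449 values (Bst2 without the Irf4-/- 18 h array of experiment A, 0.01). The signs of the other members were not followed in this way. Which members passed the threshold depended on the fit, and the causes were not tested. Shares of all genes are given in the Results only for the fit without a block and with the experiment as replicate block. The other counts in this section have no such share beside them. They do not show whether members were called more often than genes at large. Members called in 18 h against mock, 4 in Irf4-/- and 5 in Irf4+/-, numbered 32 and 34 with the experiment as replicate block, 37 and 38 with the slide as a random block, and 33 and 32 with the slide as a fixed block. They numbered 0 and 2 when only the groups compared entered the fit, 2 and 2 with normexp, 7 and 9 with normexp without very dim spots, and 1 and 1 with median scaling. Without the filter on dim probes there were 3 and 3, and leaving out arrays gave 0 to 11 and 0 to 14. In 18 h against 4 h, 1 in Irf4-/- and 2 in Irf4+/-, the counts were 20 and 29 with the experiment as replicate block, 32 and 32 with the slide as a random block and 19 and 13 with it as a fixed block. They were 0 and 0 with only the groups compared or with normexp, 0 and 1 with median scaling, 1 and 1 without the filter, and 0 to 2 and 0 to 4 when arrays were left out. The block together with leaving out experiment A, B or C gave 25, 23 and 9 in Irf4-/- and 30, 26 and 5 in Irf4+/- against mock, and 11, 3 and 0 in Irf4-/- and 23, 9 and 0 in Irf4+/- against 4 h. At 4 h against mock, 0 in both, there were 1 and 0 with the block, 2 and 2 with the slide as a random block, and 2 and 4 with the block and without experiment A. The members differing between experiments, 35, numbered 21 with normexp, 14 with the slide as a random block, and 19 to 33 without 1 experiment.

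Single arrays changed the counts at 18 h against mock. Irf4-/- gave 0 without the mock array of B, 1 without that of C, 2 without the 18 h array of A or C, and 11 without that of B. Irf4+/- gave 0 without the mock or 18 h array of A, 3 without the mock array of B or C, 14 without the 18 h array of B and 2 without that of C. Without a whole experiment the counts were 3, 1 and 0 in Irf4-/- and 4, 2 and 0 in Irf4+/- for A, B and C.

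No member was called for genotype or for a difference in response in any of 162 values over 6 results. The members' median at 18 h against mock ranged from -1.83 to -0.75 in Irf4-/- and from -2.00 to -0.91 in Irf4+/- over the alternatives. The authors' deposited table gave -1.40 and -1.50. Its changes differed from those used here by at most 0.0005 in Irf4-/- and 0.004 in Irf4+/- for any member. It is therefore no independent check. Median scaling moved the median genotype difference of all genes in mock to 0.05, from -0.06. The members stood well above background on every array, unlike Ifnb1. Oas1g stood at -5.42 in the Irf4-/- culture of experiment A at 18 h, where the dimmest signal well above background was -6.35. The part of dim signal in the members' changes was not tested.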

Other observations

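One culture stood apart for Usp18. It stood at 1.21 in the Irf4-/- culture of experiment A at 18 h, against 2.54 in the Irf4+/- culture of that experiment. In experiments B and C the genotypes differed little at 18 h, with 2.67 and 2.63 in Irf4-/- and 2.65 and 2.70 in Irf4+/-. Ifi44 in mock cultures of experiment A stood at 2.76 in Irf4-/- and 1.33 in Irf4+/-, while the mock cultures of experiment C stood at 1.11 and 1.21. Neutrophil markers were summed to 15.4 to 52.6 at 18 h in Irf4-/-, against 17.2 to 54.8 in mock, and to 13.6 to 25.7 at 18 h in Irf4+/-, against 18.7 to 21.7 in mock. Markers of T and NK cells summed to 0.20 to 0.29 at 18 h in Irf4-/-, against 0.14 to 0.18 in mock, and to 0.22 to 0.35 at 18 h in Irf4+/-, against 0.15 to 0.29 in mock, with 1 of 7 well above background on all arrays. Markers of fibroblasts summed to 0.40 to 0.65 at 18 h in Irf4-/-, against 0.42 to 0.84 in mock, and to 0.38 to 0.63 at 18 h in Irf4+/-, against 0.45 to 1.16 in mock. These sums are linear levels relative to the 75th percentile.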
